A study of Mus musculus with 2 samples.

Results

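The cells described here were CD8 T cells of donor origin that held transcripts of Tox together with transcripts of the inhibitory receptors Pdcd1, Havcr2 or Lag3. They were picked from 2 single-cell RNA libraries by unique molecular identifiers (UMIs), the tags that count captured RNA molecules. A cell was kept if it had 500 to 7500 detected genes and at most 15% of its UMIs on mitochondrial genes, and it was called a CD8 T cell if it held at least 3 UMIs over Trac, Trbc1, Trbc2 and the CD3 genes Cd3d, Cd3e and Cd3g, at least 2 UMIs of Cd8a and Cd8b1, and 0 UMIs of Cd4 and of Foxp3. Among these, a cell was chosen if it held at least 1 UMI of Tox and at least 2 UMIs of Pdcd1, Havcr2 and Lag3 together, fewer than 2 UMIs of Tcf7, less than 20 UMIs of Gzma per 10000, less than 20 UMIs of Ccl1, Ccl3, Ccl4 and Xcl1 per 10000, and fewer than 3 UMIs of the cell cycle genes Mki67, Top2a, Cdk1 and Pclaf. The rule found 1253 cells among 14973 kept cells, 271 of them at day 7 and 982 at day 14, and they are called Tox and receptor cells below.

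The study asked how donor T cells and their metabolism change in acute graft-versus-host disease, in which T cells of a transplant attack the tissues of the recipient. Per the labels and the methods, irradiated mice, BALB/c (H-2d) in the model of the study, received naive splenic T cells of wild-type C57BL/6 (H-2b) donors with T cell-depleted bone marrow. The study's legends for the single-cell data name splenic T cells without calling them naive. The cells sorted from recipient spleens were positive for CD45, TCRβ and the donor antigen H2kb and negative for the host antigen H2kd. The library titles give day 7 and day 14 after transplant, whereas the sort in the labels is described for day 7 in both, so the day was taken from the title. Both library names carry PBS, and no drug or gene deletion is given for either. The cells of several spleens were pooled, so each day is 1 library and 1 sample, with no naive donor T cells beside them. Differences between the days therefore cannot be told apart from differences between the pools of mice or the library preparations, and no test was made.

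The day 7 library held 7355 barcodes with 87124828 UMIs and the day 14 library 8043 barcodes with 84233811 UMIs. The Tox and receptor cells were deeper at day 7 than at day 14, with a median of 7202 and 5815.5 UMIs per cell. They held a median of 2064 and 1904 detected genes. 20 barcodes occurred in both libraries, and 1 cell of the rule in each library carried such a barcode. Levels are UMIs summed over the cells of a class and expressed per 1000000 UMIs of that class (CPM), and the brackets hold 95% intervals that cover counting error only.

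T cells that meet their antigen for long keep the surface receptors PD-1 (Pdcd1), TIM-3 (Havcr2) and LAG-3 (Lag3), which dampen signals of the T cell receptor. The nuclear factor TOX is induced by lasting receptor signals through NFAT factors and is needed for such cells to persist in chronic infection and tumours. A smaller pool that keeps the factor TCF-1 (Tcf7) is known to renew the population, while its offspring lose TCF-1 and gain effector molecules. In graft-versus-host disease the host antigens that drive donor T cells cannot be cleared.

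Tox was first examined in the classes of CD8 T cell, as a description, since its UMIs chose the cells. Summed Tox amounted to 257 CPM [236, 280] in the Tox and receptor cells at day 7 and to 400 CPM [384, 416] at day 14. At day 7, 145 of the 271 cells held a single Tox UMI and 56 held 3 or more. At day 14, 349 of the 982 cells held a single UMI and 384 held 3 or more. Tox was thus carried by few UMIs per cell in both libraries, and by more of them at day 14 in spite of the lower depth. Cells with 2 or more Tcf7 UMIs (Tcf7 cells) held 121 CPM [91.4, 156] of Tox at day 7 and 319 CPM [281, 362] at day 14, without having been chosen on Tox. Cells with at least 20 Gzma UMIs per 10000 (Gzma-high cells) held 56.9 CPM [52.0, 62.2] at day 7 and 264 CPM [228, 303] at day 14. In every class of non-cycling CD8 T cell shown in the plot of rule genes, Tox was higher at day 14 than at day 7. After each cell was thinned to 4000 UMIs, 74.6% of the Tox and receptor cells at day 7 and 86.6% at day 14 still held a Tox UMI. In cells that should lack Tox, at least 1 UMI was seen in 0 of 77 erythroid-like cells (at least 10 UMIs of a set of erythroid genes that includes Car1, Car2 and Klf1) and 0 of 33 neutrophil-like cells (at least 50 UMIs of S100a8 and S100a9) at day 7, and in 1 of 5 and 1 of 33 at day 14, after the same thinning. Unthinned, the shares were 1.14% and 0% at day 7 and 13.3% and 1.96% at day 14, at median depths of 32131.5, 11920.5, 2296 and 5623 UMIs.

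**Figure D1:**
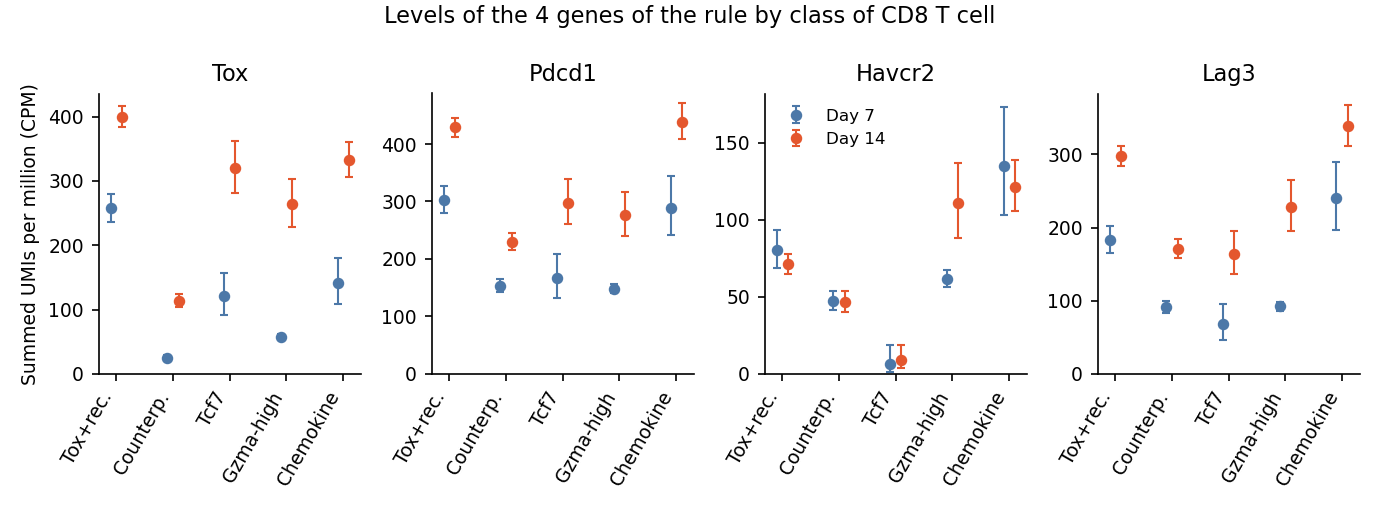
Summed level in CPM of Tox, Pdcd1, Havcr2 and Lag3 (vertical axes) in the Tox and receptor cells, their counterpart cells, the Tcf7 cells, the Gzma-high cells and the chemokine-high cells (horizontal axis), for the day 7 and day 14 library, 1 each. Bars are 95% Poisson intervals of counting error, and Tox reached 400 CPM in the Tox and receptor cells at day 14 against 25.1 CPM in the counterpart cells at day 7.

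The 3 receptors were held in different proportions. Pdcd1 was seen in 90.4% of the cells at day 7 and in 89.6% at day 14. Lag3 was seen in 70.8% [65.0, 76.2] at day 7 and in 81.3% [78.7, 83.7] at day 14. Havcr2 was seen in 41.3% [35.4, 47.4] at day 7 and in 31.8% [28.9, 34.8] at day 14, so that it was the least frequent of the receptors in both libraries. These shares depend on depth. After thinning to 4000 UMIs, Havcr2 was seen in 26.1% [21.0, 31.8] and 24.3% [21.5, 27.3], with intervals that overlapped. Lag3 was then seen in 55.6% and 64.8% and Pdcd1 in 70.1% and 80.6%. The patterns below were counted without thinning. On the CPM scale, Pdcd1 stood at 303 and 429, Lag3 at 183 and 297, and Havcr2 at 80.3 and 71.0, for day 7 and day 14. These levels were not particular to the class. The chemokine-high cells, not chosen on receptors, held Pdcd1 at 289 and 439, Lag3 at 240 and 339, and Havcr2 at 135 and 121 CPM. The Gzma-high cells held Havcr2 at 61.6 and 111 CPM, and less Pdcd1 and Lag3. The Tcf7 cells and the counterpart cells (defined below) held less of each receptor in both libraries. The most frequent pattern was Pdcd1 with Lag3 and without Havcr2, with a share of 37.3% [31.5, 43.3] at day 7 that went to 48.9% [45.7, 52.1] at day 14. UMIs of all 3 receptors were held by 24.7% [19.7, 30.3] and 22.2% [19.6, 24.9]. Pdcd1 alone accounted for 16.6% and 12.6%, and Havcr2 alone for 2 cells in each library.

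The cells nearest to the limits of the rule were few UMIs apart. Cells with exactly 1 Tox UMI and enough receptor UMIs numbered 145 at day 7 and 349 at day 14, and cells that met every other part of the rule but held 0 Tox UMIs numbered 341 and 360. Cells with exactly 2 receptor UMIs and enough Tox numbered 64 and 176, and those just outside, with 1 receptor UMI, numbered 51 and 157. The median depth was 7277 UMIs just inside and 6923 just outside the Tox limit at day 7, and 5393 against 5401 at day 14.

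The size of the population in each library was then compared. The Tox and receptor cells made up 4.81% [4.27, 5.41] of the 5629 CD8 T cells at day 7 and 17.0% [16.04, 17.99] of the 5777 CD8 T cells at day 14. Of the non-cycling CD8 T cells, they made up 11.5% [10.2, 12.9] and 42.8% [40.7, 44.8]. The Gzma-high cells went the other way, from 53.0% to 6.27% of the non-cycling CD8 T cells, and the Tcf7 cells made up 2.21% and 4.14%. Among cells that met every part of the rule except those on Tox and the receptors, 27.0% [24.3, 29.9] at day 7 and 55.1% [52.8, 57.4] at day 14 were Tox and receptor cells. The rule counts UMIs, so depth enters it. With each cell thinned to 4000 UMIs before the rule was applied, which left out 198 and 969 shallower cells, the shares of the CD8 T cells were 3.23% [2.75, 3.78] and 15.6% [14.6, 16.6]. The share was therefore larger in the day 14 library with both denominators and after thinning. The intervals did not overlap, but they cover counting error only. They do not cover differences between the pools of mice or the library preparations, so they are no test of the day. The rule leaves out the Gzma-high cells, so the shares of the CD8 T cells and of the non-cycling CD8 T cells also depend on their number.

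**Figure D2:**
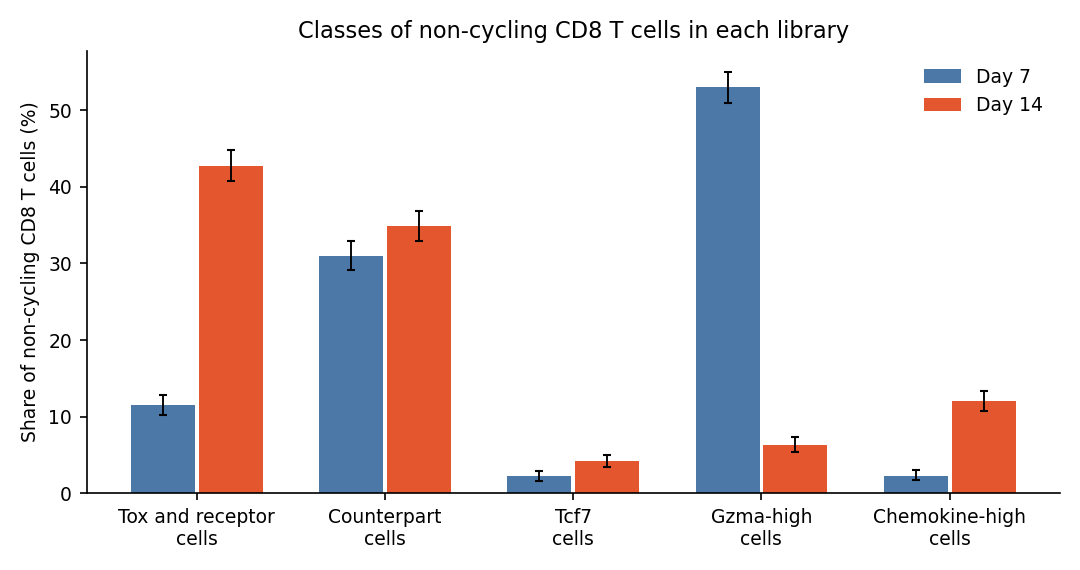
Share of the non-cycling CD8 T cells (vertical axis, percent) that fell into each class (horizontal axis) in the day 7 and day 14 library, with 95% Clopper-Pearson intervals of counting error. The Tox and receptor cells went from 11.5% to 42.8% and the Gzma-high cells from 53.0% to 6.27%.

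The label was checked against markers of other cells that the sort could hold. Of 4 NK cell markers, Ncr1, Klra8 and Klra4 were at 0 UMIs in the Tox and receptor cells of both libraries, and the list summed to 6.77 and 0.16 CPM. Of 4 B cell markers, Ms4a1 was at 0 in both, and the sum of the list stood at 33.9 and 2.25 CPM. Both platelet markers were at 0. The 6 myeloid markers summed to 30.5 CPM [23.4, 39.0] and 56.7 CPM [50.9, 62.9], against 2037 and 2135 CPM over all kept cells, and the 6 erythroid markers to 5.32 and 22.4 CPM. The 3 plasma cell markers summed to 189 and 149 CPM with Jchain at 0, the remainder being Ighm and Igkc. The 4 gamma delta T cell genes summed to 13.1 CPM [8.60, 19.0] in the earlier library and 74.2 CPM [67.6, 81.3] in the later one, and 10.7% of the cells at day 14 held 2 or more of their UMIs. Most of both sums was Tcrg-C2, at 8.70 and 65.2 CPM. Trdc was at 0 at day 7 but not at day 14, and the cells had been sorted as positive for TCRβ. The regulatory T cell list, with Foxp3 at 0 by the rule, stood at 56.6 and 102 CPM. Most of that sum at day 14 was Ikzf2, whose levels are given below among the transcription factors. Cd3d stood at 1524 and 1641 CPM, but it is among the T cell genes that the rule required, so it is no separate check of the label.

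The cells were next split by the receptors they held, with the splits chosen after earlier values of these data were known. Between cells with and without a Havcr2 UMI, 6167 genes were compared, and 0 genes were at least 2-fold higher and 1 gene (0.0162%) at least 2-fold lower with Havcr2 in both libraries. That gene was Id3, an inhibitor of E-protein transcription factors that marks memory-like CD8 T cells. Id3 UMIs were seen in 4 of 112 cells with Havcr2 and in 22 of 159 cells without it at day 7. At day 14 they were seen in 1 of 312 cells with Havcr2 and in 40 of 670 without it. Summed Id3 was 8.90 against 65.0 CPM at day 7, a log2 ratio of -2.74 [-4.13, -1.82], and rested on 1 UMI against 102 UMIs at day 14. Slamf6, a receptor of memory-like cells, was also lower with Havcr2, at 111 against 149 CPM at day 7 and 58.4 against 84.6 CPM at day 14. Il7r did not share this pattern, at 75.7 against 70.1 CPM at day 7 and 10.3 against 13.8 CPM at day 14, with intervals of the log2 ratio that held 0. The pore-forming protein gene Prf1 went the other way, at 241 against 150 CPM at day 7 and 264 against 161 CPM at day 14, with log2 ratios of 0.69 [0.40, 0.99] and 0.71 [0.55, 0.88]. Gzmb, the gene of granzyme B, stood at 979 against 719 CPM and at 553 against 354 CPM. Ccl5 differed in direction between the libraries, with log2 ratios of -0.66 [-0.72, -0.61] at day 7 and 0.15 [0.13, 0.17] at day 14. Fcer1g, an adaptor of innate receptors, was higher with Havcr2 by 0.60 on the log2 scale at day 7 and by 1.60 at day 14. The cells with Havcr2 were slightly deeper, with medians of 7572.5 against 7107 UMIs and 6118 against 5677.5 UMIs, and the part of depth in these differences was not tested.

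The other splits were by Pdcd1, Lag3 and Tox. Cells without a Pdcd1 UMI were few, 26 at day 7 and 102 at day 14, and against them 7 of 6026 genes (0.116%) were at least 2-fold higher and 6 (0.0996%) at least 2-fold lower with Pdcd1 in both libraries. Of these 13 genes only Fcer1g had an interval without 0 in both libraries. It stood at 140 CPM with Pdcd1 against 311 CPM without it at day 7 and at 30.5 against 64.3 CPM at day 14. The log2 ratios were -1.15 [-1.57, -0.72] and -1.05 [-1.62, -0.49]. Without Pdcd1, its UMIs came from few cells, 58 UMIs in 9 cells at day 7 and 33 UMIs in 9 cells at day 14. The intervals do not cover such clustering in cells. Cells without Pdcd1 met the rule through Havcr2 and Lag3, so this split also sorts cells by those receptors. With and without Lag3, 0 of 6112 genes passed 2-fold in both libraries. Ubash3b, a phosphatase that restrains receptor signalling, was higher with Lag3 by 0.66 [0.24, 1.11] at day 7 and 0.41 [0.15, 0.67] at day 14 on the log2 scale. Cells with 3 or more Tox UMIs held more Ikzf2 (Helios), at 39.0 against 24.0 CPM at day 7, where the interval of the log2 ratio held 0, and at 128 against 71.3 CPM at day 14, a log2 ratio of 0.83 [0.60, 1.08]. Ifng, the gene of interferon gamma, was higher in them as well, by 0.68 [0.39, 0.98] and 0.32 [0.15, 0.49]. The chromatin and cell cycle genes Stmn1, Hmgb2 and H2afz were lower in them, Stmn1 by -0.74 and -0.49. These cells were deeper too, with medians of 8142.5 against 7158 UMIs and 6280.5 against 5529 UMIs.

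The Tox and receptor cells of day 14 were then set against those of day 7. Among 6681 genes that averaged 10 CPM or more, 282 genes (4.22%) were at least 2-fold higher at day 14 and 90 genes (1.35%) at least 2-fold lower, with genes of the rule left out. The median log2 ratio of all 6681 genes was 0.15, so the values below stand against that shift. The ratio was computed after 1 CPM was added to each level, and its interval from the UMIs alone. Because the days are single libraries, the same ratio in the counterpart cells, which met the rule except on Tox or the receptors, is given beside the named genes with the highest and lowest ratios.

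Among the genes that were higher at day 14, Cd7, an immunoglobulin-type surface protein of T cells, went from 92.8 to 893 CPM, a log2 ratio of 3.25 [3.06, 3.48] against 3.08 in the counterpart cells. Trerf1, a zinc finger transcription regulator, went from 4 UMIs (1.93 CPM) to 334 UMIs (53.8 CPM), and its log2 ratio was 4.22 against 3.64 in the counterpart cells. Tnfsf10, which encodes the death ligand TRAIL, went from 10.2 to 52.8 CPM, a log2 ratio of 2.27 against 1.99. Each of these was also higher in the counterpart cells. Rbpj, the DNA-binding partner of Notch, went from 24.2 to 91.6 CPM, a log2 ratio of 1.88 [1.504, 2.37] against 1.30. Rgs16, a brake on G protein signals, went from 12.1 to 50.9 CPM, and the glycolytic enzyme gene Tpi1 from 75.9 to 302 CPM, with log2 ratios of 1.99 and 1.98 against 2.17 and 1.91. Tspan3, Tcrg-C2, Glcci1 and Msi2 completed the 10 highest genes, with log2 ratios of 2.97, 2.77, 1.91 and 1.81 against 2.43, 3.30, 1.96 and 2.12 in the counterpart cells. The ratios of Tcrg-C2, Rgs16, Glcci1 and Msi2 were thus higher in the counterpart cells than in the Tox and receptor cells.

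Among the genes that were lower at day 14, the 3 neighbouring interferon-inducible genes Ifitm2, Ifitm3 and Ifitm1 had the lowest ratios. Ifitm2 went from 128 to 4.51 CPM, a log2 ratio of -4.55 [-5.44, -4.26] against -4.42 in the counterpart cells. Ifitm3 went from 60.9 to 4.19 CPM, a log2 ratio of -3.58 against -3.66, and Ifitm1 from 220 to 25.8 CPM with a log2 ratio of -3.04 against -4.41 in the counterpart cells. Il7r, the receptor chain for the survival cytokine IL-7, went from 72.5 to 12.6 CPM, a log2 ratio of -2.44 against -2.47. S1pr1, the receptor that lets T cells leave lymphoid tissue, went from 148 to 40.3 CPM, a log2 ratio of -1.86 [-2.13, -1.64] against -0.99 in the counterpart cells. Ccr2, a receptor for inflammatory chemokines, went from 85.6 to 17.2 CPM, a log2 ratio of -2.25 against -1.63. Ggt1, Fcer1g, Ighm and Capg completed the 10 lowest genes, with log2 ratios of -2.42, -2.19, -2.00 and -1.86 against -2.72, -2.03, -1.74 and -1.80 in the counterpart cells. Ighm is a plasma and B cell transcript, and the B cell list went from 33.9 to 2.25 CPM over the same libraries. In the Tcf7 cells, Ighm stood at 167 and 207 CPM while the B cell list went from 23.3 to 1.30 CPM. In the Gzma-high cells, Ighm went from 114 to 17.3 CPM and the B cell list from 31.2 to 13.3 CPM. The part of RNA from other cells was not tested.

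**Figure D3:**
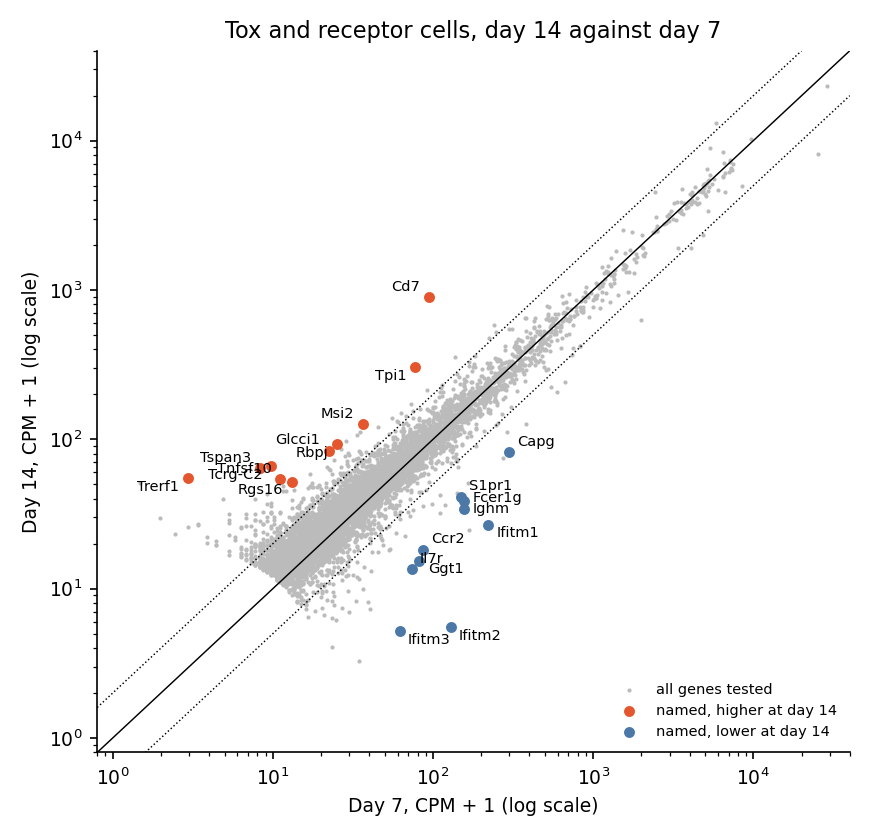
Summed level of each of the 6681 genes in the Tox and receptor cells at day 7 (horizontal axis, CPM plus 1, log scale) and at day 14 (vertical axis, same scale), with the 10 highest and 10 lowest named genes in colour, a solid line of equality and dotted lines at 2-fold. Cd7 lies at 92.8 and 893 CPM and Ifitm2 at 127.7 and 4.51 CPM.

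Genes of the inhibitory receptor list outside the rule, which also held the enzyme genes Cd38 and Entpd1, were mostly higher at day 14. Of 15 measured, 5 were at least 2-fold higher and 0 at least 2-fold lower, beside 4.22% and 1.35% of all genes, and their median log2 ratio was 0.51 against 0.15 for all genes. Cd160 went from 136 to 355 CPM, Cd244a (2B4) from 8.22 to 29.0 CPM, Cd200r1 from 14.5 to 38.6 CPM, Klrg1 from 14.99 to 33.8 CPM and Cd38, an enzyme of NAD breakdown, from 30.5 to 71.8 CPM. Ctla4 stood at 81.2 and 63.3 CPM and Tigit at 12.6 and 11.6 CPM. The list was thus uneven, with Cd160 and Cd244a far above Ctla4 and Tigit in their ratios. In the counterpart cells the log2 ratios of Cd160 and Cd244a were both 1.42, beside 1.38 and 1.70 in the Tox and receptor cells.

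Of 22 transcription factors of exhaustion and effector states, 6 were at least 2-fold higher at day 14 and 1 at least 2-fold lower, with a median log2 ratio of 0.38. Eomes, a T-box factor of late effector and exhausted cells, went from 33.9 to 81.6 CPM, while its relative Tbx21 (T-bet) stood at 56.1 and 43.0 CPM. Ikzf2 went from 27.6 to 96.3 CPM, Ikzf3 from 71.6 to 172 CPM, and Zeb2 from 5.803 to 28.5 CPM. Tox2, the paralogue of Tox, went from 4.35 to 16.9 CPM, a log2 ratio of 1.74 [0.98, 3.13]. The factors with the most transcripts, Id2, Batf and Runx3, stayed within 2-fold, at 525, 235 and 216 CPM at day 7 and 688, 219 and 324 CPM at day 14. Zbtb32, a repressor induced by activation, was the factor past 2-fold in the other direction, from 109 to 30.9 CPM.

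Genes of naive and stem-like T cells differed among themselves. Of 16 measured, 0 were at least 2-fold higher and 7 at least 2-fold lower at day 14, with a median log2 ratio of -0.62. Beside Il7r and S1pr1, these included Klf2, which drives S1pr1, from 661.5 to 240.0 CPM, Id3 from 40.6 to 16.6 CPM, Klf3 from 44.0 to 16.6 CPM and Gpr183 from 71.1 to 29.6 CPM. The log2 ratio of Klf2 was -1.46 [-1.57, -1.36] in the Tox and receptor cells and -0.80 in the counterpart cells. Intervals lay below 0 for 10 of the 16 and above 0 for 4, which were Satb1, Foxo1, Bcl2 and Ly6c2, with log2 ratios of 0.51, 0.65, 0.23 and 0.14. Ltb was within 2-fold. In these cells, then, Klf2 and S1pr1 both stood lower at day 14.

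Effector molecules differed among themselves. Of 13 cytotoxic genes, 1 was at least 2-fold higher and 1 at least 2-fold lower, with a median log2 ratio of 0.11. Gzmb went from 832 CPM to 423 CPM, a log2 ratio of -0.97 [-1.06, -0.89] against -0.60 in the counterpart cells, and Serpinb6b, an inhibitor of granzymes, from 592 to 206 CPM. Prf1 stood at 190 and 196 CPM and Nkg7, a granule protein gene, at 2457 and 3090 CPM. After thinning to 4000 UMIs, Gzmb was seen in 82.1% of the cells at day 7 and in 56.2% at day 14. The chemokine Ccl5 was the most abundant effector transcript, at 5839 and 13229 CPM, a log2 ratio of 1.18 against 1.73 in the counterpart cells, and Cxcr6, a receptor of tissue-homing T cells, stood at 297 and 550 CPM. Ifng stood at 208 and 190 CPM, a log2 ratio of -0.13 [-0.29, 0.03]. Csf1 went from 8.70 to 34.6 CPM. The costimulatory receptor 4-1BB (Tnfrsf9) went from 74.0 to 153 CPM, and it was the only one of 16 costimulatory receptors past 2-fold.

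Of the metabolic lists, glycolysis had genes past 2-fold and the others below did not. Of 18 glycolysis genes, 6 were at least 2-fold higher and 0 at least 2-fold lower at day 14, with a median log2 ratio of 0.88, and the interval lay above 0 for 16 of them, beside 27.7% of all genes. The most abundant were Gapdh at 1397 and 1820 CPM, Ldha at 375 and 649 CPM, Aldoa at 378 and 646 CPM and Pkm, the pyruvate kinase gene, at 247 and 519 CPM. Slc16a3, a lactate exporter, went from 4.35 to 30.4 CPM. The log2 ratios in the counterpart cells were 0.89 for Ldha and 1.23 for Pkm, beside 0.79 and 1.07 in the Tox and receptor cells. The oxidative pentose phosphate genes G6pdx, Pgls and Pgd, the pathway that the study targeted, went from a sum of 285 CPM [262, 309] to 307 CPM [293, 321], a log2 ratio of 0.11 [-0.03, 0.24]. Pgd, the gene of 6-phosphogluconate dehydrogenase, stood at 36.8 and 41.4 CPM, a log2 ratio of 0.17 [-0.20, 0.56]. Of 36 nuclear subunits of complex I, 0 passed 2-fold, with a median log2 ratio of -0.10, and the same held for 35 subunits of complexes III, IV and V. Intervals lay below 0 for 14 of the 36 and for 20 of the 35, beside 11.1% of all genes, so many of these subunits were slightly lower at day 14.

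The interferon response list did not include the interferon-inducible genes Ifitm1, Ifitm2 and Ifitm3, which were far lower at day 14. Of its 18 genes measured, 2 were at least 2-fold higher and 0 at least 2-fold lower, with a median log2 ratio of 0.61. Isg20 went from 13.5 to 35.4 CPM, opposite in direction to the Ifitm genes. Of 17 MHC class I genes, 1 was past 2-fold, with a median of 0.35. With only genes of at least 50 CPM the median of the interferon list was -0.06. Of 24 early genes of T cell receptor signalling, 1 was at least 2-fold higher (Spry2, 6.77 to 28.0 CPM) and 2 at least 2-fold lower (Fos and Fosb), with a median of -0.07. Nr4a2, an orphan nuclear receptor induced by T cell receptor signals, stood at 61.9 and 114 CPM.

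**Figure D4:**
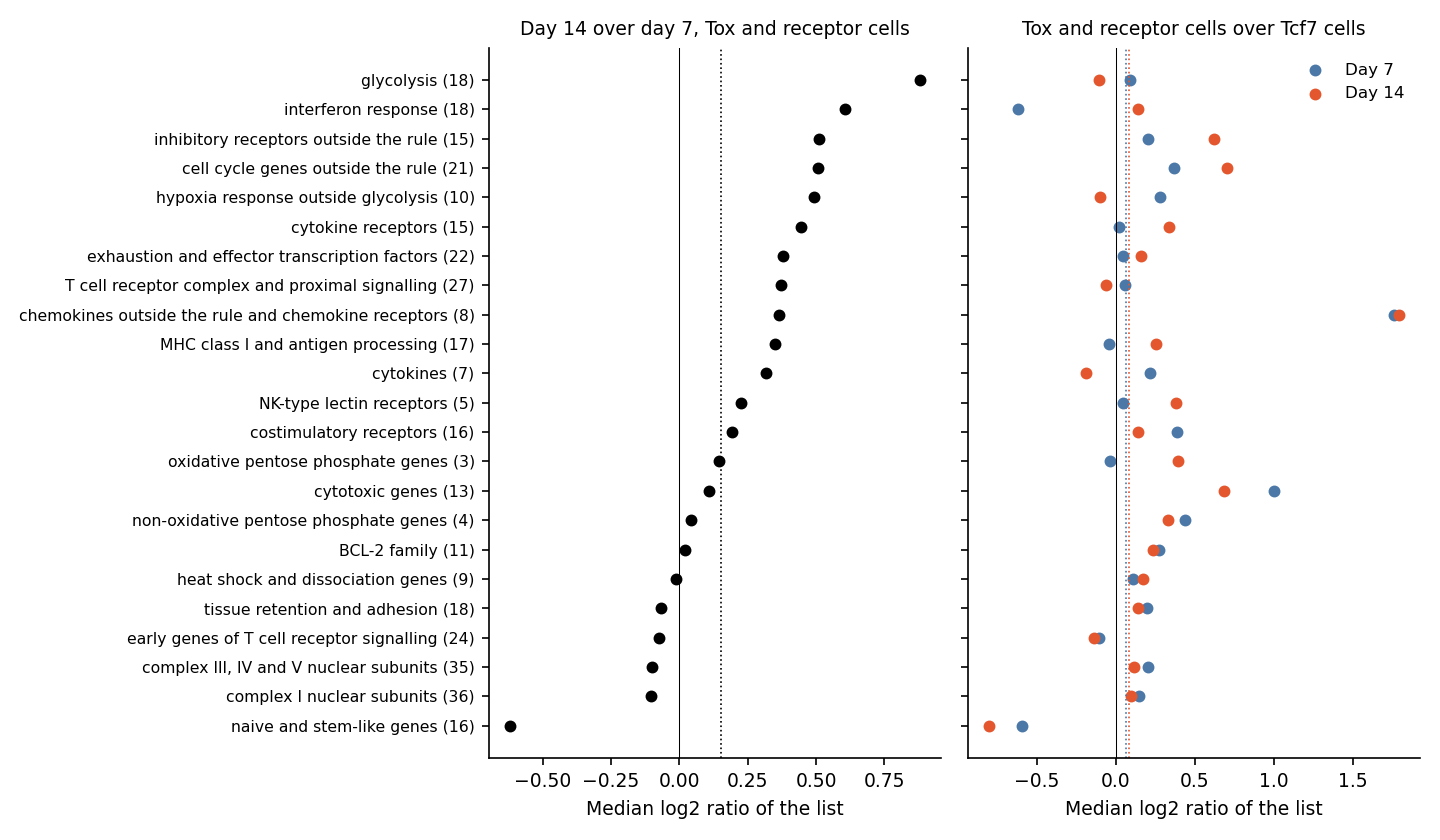
Median log2 ratio (horizontal axes) of each gene list with at least 3 genes measured, the number measured over time in parentheses (vertical axis): day 14 over day 7 in the Tox and receptor cells at left, and Tox and receptor cells over Tcf7 cells in each library at right, with dotted lines at the median of all genes. At left, glycolysis lies highest at 0.88 and the naive and stem-like genes lowest at -0.62.

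The Tox and receptor cells were next compared with their counterpart cells, 731 at day 7 and 800 at day 14, which met the same rule except that they held 0 Tox UMIs or fewer than 2 receptor UMIs. This and the following comparisons were made within each library and share the Tox and receptor cells, and the classes were cut on UMIs of the same cells. Of 6152 genes outside the rule, 0 genes (0%) were at least 2-fold higher and 1 gene (0.0163%) at least 2-fold lower in both libraries, so that most of the transcriptome lay within 2-fold between the classes. The median log2 ratio of all genes was 0.04 at day 7 and 0.01 at day 14. The intervals lay above 0 in both libraries for 105 genes (1.71%) and below 0 for 104 genes (1.69%).

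Nr4a2 had the highest ratio. It stood at 61.9 CPM in the Tox and receptor cells and 27.3 CPM in the counterpart cells at day 7, a log2 ratio of 1.15 [0.82, 1.54], and at 114 against 58.2 CPM at day 14, a log2 ratio of 0.95 [0.75, 1.18]. Thinned to 4000 UMIs, 17.2% of the Tox and receptor cells and 10.0% of the counterpart cells held a Nr4a2 UMI at day 7, and 29.0% and 17.1% at day 14. Nr4a2 UMIs were seen in 1.30% of the erythroid-like cells at day 7 and in 0% of the neutrophil-like cells after the same thinning. Other classes held Nr4a2 as well. Over the Tcf7 cells its log2 ratios were 0.17 and 0.27, with intervals that held 0. The Gzma-high cells held 35.3 CPM at day 7 and 124 CPM at day 14. Among the chemokine-high cells of day 14, 61.25% held a Nr4a2 UMI after thinning. Arid5b, a chromatin factor, followed with 0.61 and 0.62, and Tnfrsf9 with 0.80 and 0.49. Nfatc1, a transcription factor activated by calcium signals, had log2 ratios of 0.43 [0.15, 0.72] and 0.41 [0.23, 0.61], and Ubash3b of 0.80 and 0.44. Over the Gzma-high cells, the intervals of Nr4a2, Tnfrsf9, Nfatc1 and Ubash3b lay above 0 at day 7 and held 0 at day 14. Lyst, Ppm1h, Cdk6 and Ciapin1 were also among the 10 highest, with ratios between 0.43 and 0.76. Of 18 early genes of T cell receptor signalling measured here, the intervals lay above 0 in both libraries for 3, which were Nr4a2, Dusp5 and Rel, beside 1.71% of all genes, and the list medians were -0.06 and 0.05.

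The genes with the lowest ratios to the counterpart cells included several of mitosis. Ccnb2 (cyclin B2) stood at 33.9 against 65.8 CPM at day 7 and at 45.9 against 87.7 CPM at day 14, with log2 ratios of -0.94 [-1.35, -0.58] and -0.92 [-1.16, -0.71]. Birc5 (survivin), Cenpa and Cks1b lay at -0.61, -0.68 and -0.73 at day 7 and at -1.02, -0.65 and -0.54 at day 14. The list of cell cycle genes outside the rule was mixed, since of 20 measured, 3 had intervals above 0 and 7 below 0 in both libraries, with medians of 0.17 at day 7 and -0.12 at day 14, and the replication genes Mcm3, Mcm6 and Dut were the 3 above 0. Both classes were limited to fewer than 3 UMIs of 4 cell cycle genes per cell, and the counterpart cells were shallower, at 6512 against 7202 UMIs at day 7 and 4904.5 against 5815.5 at day 14. In cells of 6000 to 14000 UMIs the ratios of Ccnb2 were -0.86 and -0.95, and those of Nr4a2 were 1.09 and 1.10. Ly6c2, a surface protein of effector and memory cells, lay at -0.49 and -0.52, and Satb1, a chromatin organiser of naive T cells, at -0.55 and -0.47. Cdkn2d, Lockd, Itgb7 and Gna15 completed the 10 lowest. The gene past 2-fold was Cd74, the invariant chain of MHC class II and a transcript of antigen-presenting cells, at 8.70 against 19.8 CPM and 31.2 against 64.6 CPM. The 6 myeloid markers summed to 54.3 CPM in the counterpart cells against 30.5 CPM at day 7 and to 547 CPM against 56.7 CPM at day 14, and their part in the ratio of Cd74 was not tested.

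Eomes differed between the classes at day 7, at 0.85 on the log2 scale, and by 0.18 at day 14. Of 13 genes of the inhibitory receptor list measured in this comparison, 0 passed 2-fold, with medians of 0.35 and 0.18, and of 13 cytotoxic genes 0 passed 2-fold, with medians of 0.18 and 0.00. The counterpart cells included 90 cells at day 7 and 240 at day 14 that held Tox UMIs but fewer than 2 receptor UMIs. A cell with 0 UMIs of Tox may also still hold the transcript. These differences are therefore between cells that met and did not meet the UMI limits on Tox and the receptors.

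Against the Tcf7 cells, 52 at day 7 and 95 at day 14, more genes differed. Of 6147 genes, 49 (0.797%) were at least 2-fold higher and 27 (0.439%) at least 2-fold lower in the Tox and receptor cells in both libraries. Gzmb stood at 832 against 110 CPM at day 7 and at 423 against 79.5 CPM at day 14, with log2 ratios of 2.91 [2.52, 3.35] and 2.40 [2.05, 2.80]. Its ratio was 3.53 at day 14 when cells with 2 or more UMIs of other cell types were left out. Cxcr6, Ccl5 and Cx3cr1 had log2 ratios of 1.84, 1.77 and 1.75 at day 7 and of 1.79, 2.07 and 1.79 at day 14, and Gpr65, a proton-sensing receptor, of 1.96 and 1.73. Of 12 cytotoxic genes, 4 were at least 2-fold higher in both libraries, with medians of 1.00 and 0.68, and of 6 chemokine and chemokine receptor genes, 4 were, with medians of 1.76 and 1.79. Of 11 genes measured from the inhibitory receptor list, Entpd1 (CD39) and Cd38 were at least 2-fold higher in both libraries, and Cd200 was at least 2-fold lower. The log2 ratios of Entpd1 and Cd38 were 1.57 and 2.10 at day 7 and 2.68 and 1.43 at day 14. In the 52 and 95 Tcf7 cells, Entpd1 in both libraries and Cd38 at day 7 rested on few UMIs, so these ratios are imprecise. Both encode surface enzymes rather than receptors, and no other gene of the list was at least 2-fold higher in both libraries. The medians of all genes were 0.06 and 0.09.

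The genes that were lower than in the Tcf7 cells included several that mark stem-like cells. Id3 stood at 40.6 against 199 CPM at day 7 and at 16.6 against 164 CPM at day 14, with log2 ratios of -2.26 [-2.73, -1.85] and -3.23 [-3.70, -2.92]. Il7r lay at -1.85 and -2.77, and Rgs10, a regulator of G protein signals, at -2.48 and -2.20. Adk and Asap1 lay at -1.83 and -1.91 at day 7 and at -1.81 in both cases at day 14. Of 17 naive and stem-like genes, 5 were at least 2-fold lower in both libraries (among them Dapl1, Il7r, Slamf6 and Id3) and 0 higher, and Slamf6 had log2 ratios of -1.57 and -2.40. Of 20 cell cycle genes outside the rule, 20 were above 0 at day 14 and 13 at day 7, beside 3633 and 3426 of all 6147 genes, and 8 had intervals above 0 in both libraries, beside 3.904% of all genes. The Tcf7 cells were few and deeper, at medians of 9148.5 and 7426 UMIs. Both classes were limited to fewer than 3 UMIs of 4 cell cycle genes per cell, a limit that is stricter relative to depth in the deeper Tcf7 cells. The part of this limit in the cell cycle genes was not tested.

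Against the Gzma-high cells, 1249 at day 7 and 144 at day 14, 4 of 6143 genes (0.0651%) were at least 2-fold higher and 10 (0.163%) at least 2-fold lower in both libraries. Ifitm1 was the lowest, at 220 against 1036 CPM at day 7 and at 25.8 against 478 CPM at day 14, with log2 ratios of -2.23 [-2.38, -2.10] and -4.16 [-4.49, -3.94]. Klrg1, a receptor of terminal effector cells, lay at -2.03 and -1.61, and Klre1, a lectin receptor of NK cells, at -1.45 and -1.21. Arl4c and Itga1, an integrin of tissue-resident cells, lay at -1.14 and -1.11 at day 7 and at -1.29 and -1.61 at day 14. Of 4 NK-type lectin receptors measured, all 4 had intervals below 0 in both libraries, beside 1.89% of all genes. The genes higher than in the Gzma-high cells included Nrgn, a calmodulin-binding protein gene, with log2 ratios of 1.30 [1.08, 1.56] and 0.78 [0.49, 1.09], Slamf6 with 0.72 and 1.27, and Orai1, the pore of the calcium channel opened by receptor signals, with 0.85 and 0.73. Lamp1 and Kcnq1ot1 followed with 0.57 in both cases at day 7 and with 0.63 and 0.56 at day 14. In cells of 6000 to 14000 UMIs, which left 31 Gzma-high cells at day 14, the ratio of Nrgn at day 14 was 0.07 and that of Slamf6 was 3.10.

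**Figure D5:**
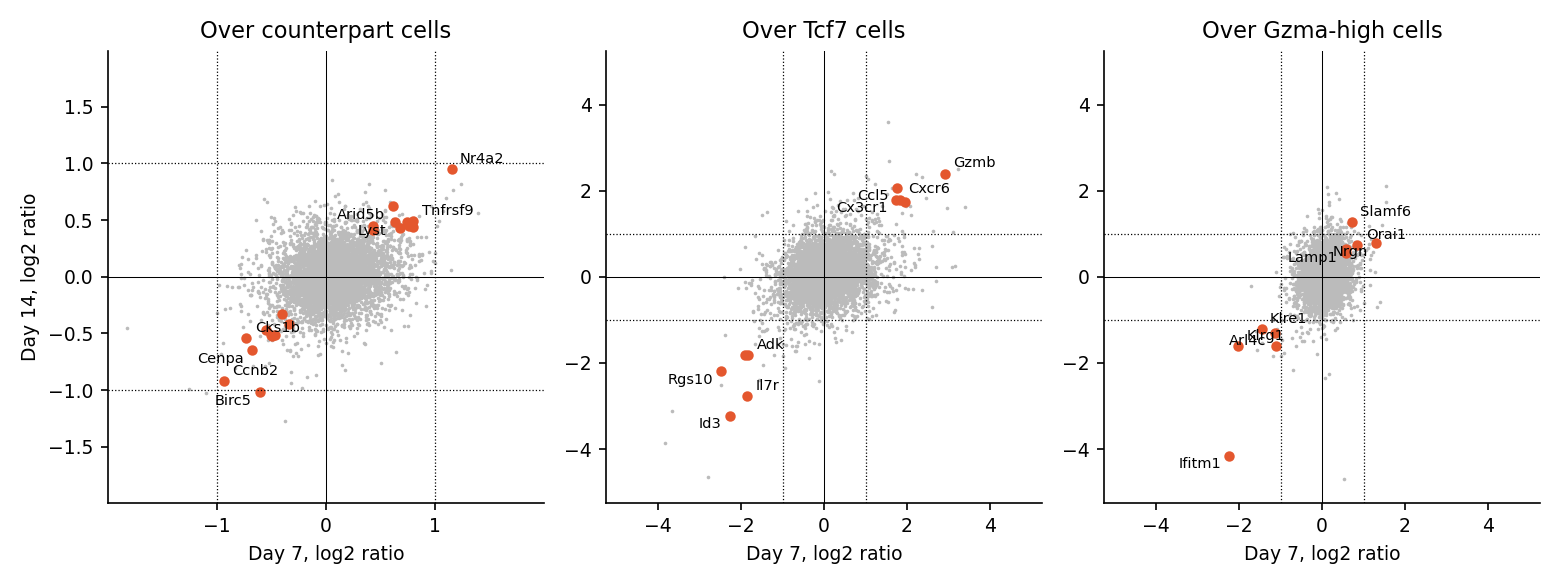
Log2 ratio of the Tox and receptor cells over the counterpart cells, the Tcf7 cells and the Gzma-high cells at day 7 (horizontal axes) and at day 14 (vertical axes), 1 point per gene, with named genes in colour, the first 4 in each direction labelled and dotted lines at 2-fold. Few genes pass 2-fold in both libraries over the counterpart cells, whereas Gzmb lies at 2.91 and 2.40 and Id3 at -2.26 and -3.23 over the Tcf7 cells.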

How the data were processed

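The authors aligned the reads to mm10 and deposited UMI counts (whole numbers for each gene in each cell) from Cell Ranger 6.1.2, per the submitters' processing notes, without normalization, for barcodes called as cells. From these counts, the filters and rule given above were applied in Python 3.11.15 with numpy 2.4.6, scipy 1.17.1 and pandas 2.3.3. Each day is 1 library of pooled cells, so no test was made. For each class, UMIs were summed, scaled to 1000000 and compared as log2 ratios with 1 CPM added. Genes had to average 10 CPM or more, the 24 genes of the rule being left out. Intervals are exact: Poisson for sums, conditional binomial for ratios (without the added CPM), and Clopper-Pearson for shares. A gene was counted as different at a 2-fold ratio. PCR copies are merged by UMIs, and intervals cover counting error only.

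Named genes over time are the 10 genes with the highest and the 10 with the lowest ratio that reached 50 CPM in either library and had an interval without 0. Over the counterpart cells they are the 10 and 10, and over the other classes the 5 and 5, ranked by the smaller ratio of both libraries. In the 24 gene lists, of 471 entries, they are the 4 most abundant genes and those past 2-fold. Sex-linked genes, mt- genes and unnamed transcripts were left out of the ranks. The members, the lists and these rules were chosen with earlier results of these data known. Id3 and Slamf6 in the split by Havcr2, the genes of the other splits, and Ctla4, Tigit, Tbx21, Rel, Igkc, Foxo1, Mcm3, Mcm6 and Dut were named after their values were seen. In the lists, 4 symbols were not matched and are not reported. A few genes of the lists and ranks are not reported here.

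Scrublet in scanpy 1.11.5 marked 2 barcodes (0.0272%) at day 7 and 0 at day 14 and is taken not to have worked, so doublets were not removed. One alternative left out the 433 and 518 barcodes with the highest scores. Other alternatives changed the mitochondrial limit, the Tox and receptor limits, the depth, the total, the expression limit and the CPM added, or left out cells with UMIs of other cell types and barcodes of both libraries. The calculation was tested on simulated counts.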

Additional observations from a re-analysis of the deposited data

How the results depend on the processing

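No paired analysis was possible because each day is 1 library. The share of the CD8 T cells that met the rule, 4.81% at day 7 and 17.0% at day 14, was 2.24% and 10.96% with at least 2 Tox UMIs, 3.68% and 13.95% with at least 3 receptor UMIs, and 3.23% and 15.6% after thinning to 4000 UMIs. It was 18.2% at day 14 without cells with 2 or more UMIs of other cell types. As a share of the non-cycling CD8 T cells it was 11.5% and 42.8%, and as a share of all kept cells 3.77% and 12.6%. The share was larger at day 14 in each of these. The counts of genes past 2-fold moved more. With a mean of at least 50 CPM, which leaves fewer genes to compare, 41 genes were higher and 31 lower over time, 0 lower than in the counterpart cells, 11 higher and 7 lower than in the Tcf7 cells, and 0 higher and 3 lower than in the Gzma-high cells. With 5 CPM added, 151 were higher over time, 0 lower than in the counterpart cells, 29 higher than in the Tcf7 cells and 2 higher than in the Gzma-high cells. With ribosomal protein, mt- and rRNA-associated genes out of the total, 136 were lower over time, 4 lower than in the counterpart cells, 76 lower than in the Tcf7 cells and 11 higher than in the Gzma-high cells. In cells of 6000 to 14000 UMIs, 2 genes were higher and 3 lower than in the counterpart cells. Against the counterpart cells, 1 gene was higher with a mitochondrial limit of 5%, 0 were lower without cells with UMIs of other cell types and with at least 3 receptor UMIs, and 2 were lower with at least 2 Tox UMIs, with which 7 were higher than in the Gzma-high cells. With genes of 50 CPM or more, the list medians over time turned for cytokine receptors, from 0.45 to -0.0196, and for the interferon response, from 0.61 to -0.0573. The causes were not tested. Of 1200 values of named genes under the alternatives, 50 moved outside their interval and 0 changed direction.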

Other observations

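T cell receptor beta variable segments were seen in few cells. In the Tox and receptor cells of day 7, 91 UMIs of such segments fell on 16 of 35 segments in 74 of 271 cells, led by Trbv13-1, Trbv13-2 and Trbv19 with 10.99% each. At day 14, 314 UMIs fell on 20 of 35 segments in 254 of 982 cells, led by Trbv2 with 20.4%, Trbv17 with 16.9% and Trbv3 with 11.8%. In the counterpart cells of day 14 the same 3 segments led, Trbv17 with 17.1%, Trbv2 with 15.7% and Trbv3 with 11.4%.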
